A study of Mus musculus with 6 samples.

Results

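The enzymes described here are encoded by 10 genes: the superoxide dismutases Sod1, Sod2 and Sod3, the catalase Cat and the peroxiredoxins Prdx1 to Prdx6. They were picked by symbol, and each symbol matched 1 Ensembl gene, so that 10 of the 52636 genes in each deposited table are covered. The list was drawn with results of the same irradiated-against-untreated contrast known, among them the fall of Sod1. The differences between the groups are therefore a description of these libraries. The RNA was from the parotid gland, a salivary gland, of 28-day-old mice of the inbred FVB strain. There were 3 untreated samples and 3 irradiated ones, the latter after a single exposure to 5 Gy. The dose stands in a protocol text attached to all 6 samples, and it was read here as applying to the samples labelled treated. The labels give neither the time from irradiation to collection nor whether each sample was a separate mouse, so p-values measure only the spread between these samples. The deposited tables of the irradiated samples carry the tag D5 in their names, which the labels do not explain.

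Superoxide is a by-product of respiration and of oxidases, and ionising radiation also produces it in water. Superoxide dismutases turn it into hydrogen peroxide and oxygen. Catalase and peroxiredoxins then remove the peroxide. The enzymes divide the work by place: Sod1, Prdx1, Prdx2 and Prdx6 act mainly in the cytosol, Sod2 and Prdx3 in the mitochondrial matrix, Cat in peroxisomes, Prdx4 in the endoplasmic reticulum and Sod3 outside the cell. Prdx5 is found in mitochondria, peroxisomes and cytosol. Peroxiredoxins use a cysteine that peroxide oxidises, and most of them are reduced again by thioredoxin.

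The libraries held 7108359 to 15036193 counts in genes. Irradiated replicate 2 was the shallowest, and 10.01% of its reads did not align, where the other 5 libraries had 3.75% to 4.33%. Its table lists 184 reads set aside for low alignment quality, against 342749 to 491591 in the others, so it may have been aligned or counted with other settings, which was not tested. It is 1 of the 3 irradiated libraries behind every value below. The 8 markers of acinar cells, the secretory cells of the labelled tissue (among them Amy1, Bpifa2 and Aqp5), were present in all libraries, with a summed level of 405900 to 542600 CPM (counts relative to library size, scaled by the trimmed mean of M-values, TMM). Amy1 and Bpifa2 make up most of this sum. Another marker on the list, Prol1, stood at 442.4 CPM in irradiated replicate 2 and at 32.8 to 40.9 CPM in the other 5 libraries. The 10 genes together took 0.0414% to 0.0475% of the counts in genes, and the smallest count of any of them in a library was 84, for Prdx4. All 10 passed the filter on low counts, which kept 12885 genes.

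Of the 10 genes, Sod1 fell after irradiation and the other 9 did not pass the threshold of 0.05 on the adjusted p. Over all tested genes 1.00% passed in either direction, 0.349% passed as lower and 0.652% as higher. Sod1, Prdx1 and Prdx6 were lower in every irradiated library than in the lowest untreated one, and 0 members were higher in that way. Among all tested genes, 21.2% had groups without overlap, 10.6% lower and 10.6% higher. The median log2 fold change of the members was -0.09, against -0.01 for all tested genes, and 6 of the 10 were negative, against 50.9% of all tested genes. Scaled by library totals alone, which moved the median of all genes to 0.14, the median of the members was 0.06. Under that scaling Sod1 was still lower without overlap, Prdx1 and Prdx6 overlapped, and Sod2, Cat and Prdx3 were higher without overlap. Only 30.5% of all tested genes were negative there. The share of all genes without overlap was worked out for TMM scaling alone, so these separations have no such share beside them. Separations between groups given below are with TMM scaling unless stated.

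**Figure D1:**
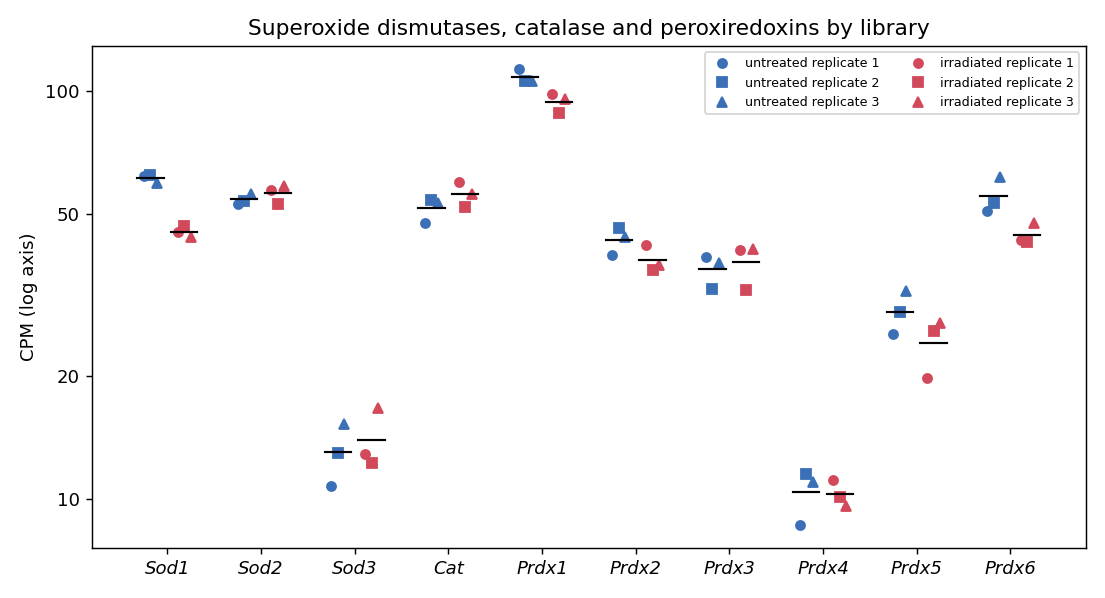
CPM of each of the 10 genes (log axis) in the 3 untreated (blue) and 3 irradiated (red) libraries, with black bars for group means. Sod1 shows the clearest gap, from 59.6 to 62.3 CPM in untreated and 43.8 to 46.7 CPM in irradiated glands. The groups of Sod2, Sod3, Cat, Prdx2, Prdx3, Prdx4 and Prdx5 overlap.

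The order of abundance was compared per length, as CPM per kilobase of the longest principal transcript in the annotation. In untreated glands Sod1 stood highest, at 95.6 ± 2.21 CPM per kilobase (SD, n = 3), followed by Prdx1 at 47.2 ± 1.96. Prdx1 has a second principal transcript of 877 bases beside the one of 2294 bases, and with the shorter one it would stand at 123.4 CPM per kilobase, above Sod1. The order of these top genes therefore rests on the transcript assumed. Prdx2 (26.8 ± 2.10), Prdx3 (24.8 ± 2.33), Prdx6 (23.1 ± 2.33), Prdx5 (22.8 ± 2.78) and Cat (19.7 ± 1.36) followed in CPM per kilobase. At these lengths each neighbouring pair in that order overlapped between libraries. Prdx2 has 4 principal transcripts, and with the shortest, of 1175 bases, it would stand at 36.8 CPM per kilobase. Its overlap with Prdx3 therefore also rests on the transcript assumed. Prdx4 and Sod2 stood at 10.5 ± 1.56 and 9.25 ± 0.257 CPM per kilobase and overlapped too. The extracellular enzyme Sod3 was the lowest, at 3.48 ± 0.602 CPM per kilobase, below all other members in each untreated library.

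Sod1, the copper and zinc enzyme of the cytosol (ENSMUSG00000022982, chromosome 16, 90220754 to 90226329, plus strand, build mm10), had 61.9, 62.3 and 59.6 CPM in untreated replicates 1, 2 and 3. The irradiated replicates had 45.2, 46.7 and 43.8 CPM. The groups did not overlap, and the spread inside each was small, with a coefficient of variation of 2.31% in untreated and 3.20% in irradiated glands. The mean went from 61.3 ± 1.42 to 45.2 ± 1.45 CPM (SD, n = 3 each), a log2 fold change of -0.44 (SE 0.10), or 0.738 times the untreated level. In the quasi-likelihood test of edgeR, adjusted over all 12885 genes by the Benjamini-Hochberg method, its p was 0.0433, and it ranged from 0.0342 to 0.633 over 15 alternative settings, of which 4 kept the call and 11 lost it. Sod1 lost its call without untreated replicate 1 (adjusted p 0.108), 2 (0.141) or 3 (0.0859), and without irradiated replicate 1 (0.175) or 3 (0.0879), at log2 fold changes from -0.46 to -0.42. It kept the call without irradiated replicate 2, the shallow library, at an adjusted p of 0.0442.

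Among the alternatives, an adjustment for transcript length and GC content moved this value most. Sod1 has a transcript of 641 bases and lies among the shortest 20% of the tested genes. In that length class the median log2 fold change was -0.17 and 72.3% of genes were negative, against a median of 0.10 and 32.8% among the longest 20%. The trend separated the groups: the median deviation of short genes minus that of long genes (log2 CPM from the mean over libraries) was 0.119, 0.153 and 0.164 in untreated replicates 1 to 3, and -0.113, -0.184 and -0.08 in irradiated replicates 1 to 3. Within the shortest class, 18.8% of genes had a lower log2 fold change than Sod1. With a per-library offset for length and GC content the log2 fold change of Sod1 was -0.19 (SE 0.11), and the edgeR adjusted p was 0.51. The offset fits length and GC content together, and the part of each in this shift was not tested.

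**Figure D2:**
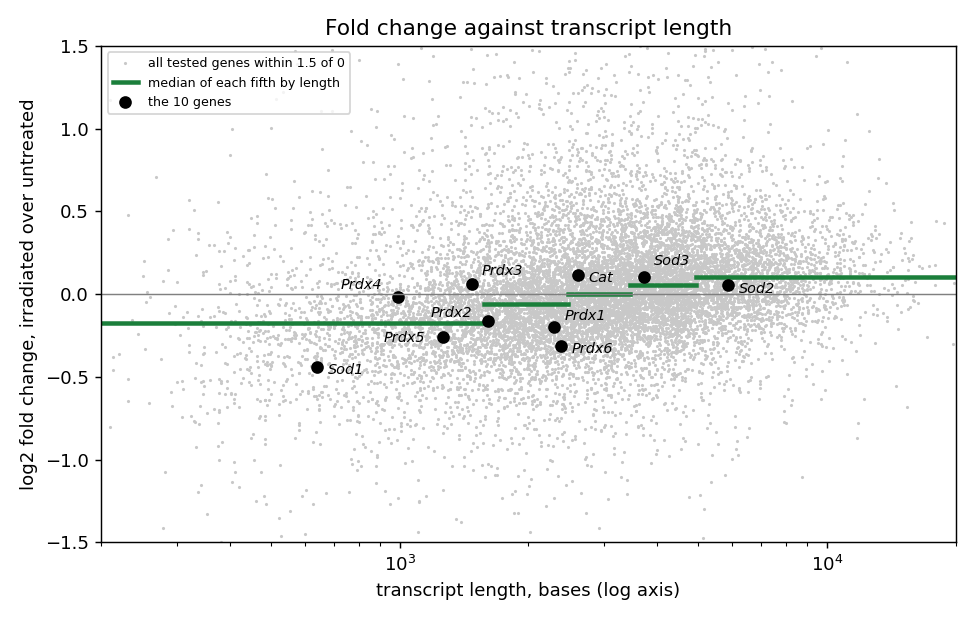
Log2 fold change of irradiated over untreated glands against transcript length in bases (log axis) for tested genes (grey, those within 1.5 of 0), with the median of each of 5 length classes (green) and the 10 genes (black). The medians climb from -0.17 to 0.10, and Sod1, Sod2, Prdx1, Prdx2, Prdx5 and Prdx6 lie below the median of their class.

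The promoter of Sod1 is shown because Sod1 was the called member, beside those of Prdx1, the most abundant peroxiredoxin in CPM, and Sod2, its mitochondrial counterpart whose groups overlapped. The sequences are from RefSeq for the C57BL/6J reference (GRCm38.p6, which shares mm10 coordinates), 5′ to 3′ on the gene's strand, and end before the nearest annotated exon base. They run over chr16:90220512-90220753 for Sod1, chr4:116685349-116685543 for Prdx1 and chr17:13007589-13007816 for Sod2, all on the plus strand. The Sod2 stretch lies inside the Ensembl gene span but holds no annotated exon base. Capitals mark matches on either strand to 5 motifs: the core of the antioxidant response element bound by NRF2 (TGACNNNGC), the GC box (GGGCGG), the CCAAT box (CCAAT), the TATA box (TATAAA) and the E box (CACGTG).
Sod1: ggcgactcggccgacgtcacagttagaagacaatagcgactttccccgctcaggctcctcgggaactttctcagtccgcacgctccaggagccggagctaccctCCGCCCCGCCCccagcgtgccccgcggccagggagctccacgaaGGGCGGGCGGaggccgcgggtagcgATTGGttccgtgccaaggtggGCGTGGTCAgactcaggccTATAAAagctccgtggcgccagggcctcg
Prdx1: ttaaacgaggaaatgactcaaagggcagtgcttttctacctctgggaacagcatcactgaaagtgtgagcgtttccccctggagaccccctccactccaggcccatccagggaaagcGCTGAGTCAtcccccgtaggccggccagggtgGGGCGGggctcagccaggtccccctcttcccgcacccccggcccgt
Sod2: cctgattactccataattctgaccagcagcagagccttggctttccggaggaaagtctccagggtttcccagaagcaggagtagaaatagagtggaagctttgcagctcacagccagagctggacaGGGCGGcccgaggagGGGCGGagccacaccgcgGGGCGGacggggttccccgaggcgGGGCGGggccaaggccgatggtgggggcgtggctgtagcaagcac
Promoter windows of 300 bases, 250 before to 50 after the start, were listed for 8 of the 10 genes. Sod3 and Prdx6 were not among them. The antioxidant response core was found in 2 of the 8, Sod1 at positions -56 to -48 and Prdx1 at -133 to -125 (with the first transcribed base as 0), both matched on the minus strand, and in 12.5% of 27025 windows of all genes. A GC box was found in 8 of the 8 windows and in 35.9% of all windows, with overlapping boxes in Sod1. A CCAAT box was found in 4 of the 8 against 37.9% of all windows, a TATA box in 3 (Sod1, Prdx3 and Prdx1, where it lies beyond the bases printed) against 14.2%, and an E box in 1, Prdx4, against 7.24%. A match describes the letters and does not show that a factor binds there.

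The other dismutases had groups that overlapped. Sod2, the manganese enzyme of the mitochondrial matrix (chromosome 17, 13006846 to 13040063, plus strand), had 53.0, 53.8 and 55.9 CPM in untreated and 57.3, 52.8 and 58.6 CPM in irradiated replicates 1, 2 and 3. Irradiated replicate 2 was the lowest of all, and irradiated replicates 1 and 3 the highest, with a log2 fold change of 0.05 (SE 0.10) and an edgeR adjusted p of 0.864. Sod3, the secreted copper and zinc enzyme that binds extracellular matrix (chromosome 5, 52363791 to 52371418, plus strand), had 10.8, 12.9 and 15.3 CPM in untreated and 12.9, 12.3 and 16.7 CPM in irradiated glands. Its range in 1 group covered most of the range in the other, and its log2 fold change was 0.10 (SE 0.16). The sign of the Sod2 value turned with the length and GC offset, at -0.08, and that of Sod3 without untreated replicate 1 (-0.02) or irradiated replicate 3 (-0.05).

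The ratio of Sod1 to Sod2 counts inside a library does not depend on library scaling. It was 1.17, 1.16 and 1.07 in the untreated and 0.789, 0.884 and 0.747 in the irradiated libraries, so Sod1 outnumbered Sod2 in counts in each untreated library and was below it in each irradiated one. Sod2 has a transcript of 5861 bases and lies in the longest class, so the length trend described above also enters this ratio. As a share of the counts of all 10 genes, Sod1 held 13.8% (95% Wilson interval 12.9% to 14.7%), 13.5% (12.6% to 14.4%) and 12.5% (11.8% to 13.3%) in untreated glands. In irradiated glands it held 10.5% (9.78% to 11.3%), 11.7% (10.6% to 12.8%) and 10.1% (9.30% to 11.0%). The intervals cover counting error only. The shares of the groups did not overlap, but the interval of irradiated replicate 2 overlapped those of untreated replicates 2 and 3. Sod1 has the shortest transcript of the 10 genes, so the length trend also enters these shares. The share of Sod2 was 11.7% ± 0.0569 (SD, n = 3) in untreated glands and 13.4% ± 0.155 after irradiation, and since shares add to 100% a lower share of one gene raises the others.

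Cat, the haem enzyme that splits hydrogen peroxide in peroxisomes (chromosome 2, 103453849 to 103485160, minus strand), had 47.5, 54.0 and 53.2 CPM in untreated and 59.9, 51.8 and 55.8 CPM in irradiated replicates 1, 2 and 3. The groups overlapped through irradiated replicate 2. The log2 fold change of 0.12 (SE 0.11) was the highest of the 10, with an edgeR adjusted p of 0.668, and it was positive in all 15 alternative settings. Of 20 tested genes of peroxisome import and membranes, 0 passed, 15 were negative and the median log2 fold change was -0.16. Hsd17b4 and Scp2, peroxisomal enzymes of fatty acid and sterol handling, stood at -0.28 (SE 0.13) and -0.15 (SE 0.11), and at -0.12 and -0.07 without untreated replicate 1.

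The 3 cytosolic peroxiredoxins, Prdx1, Prdx2 and Prdx6, had negative values. Prdx1 (chromosome 4, 116685544 to 116700822, plus strand), the most abundant member in CPM, had 113.4, 105.7 and 105.5 CPM in untreated and 98.3, 88.3 and 95.8 CPM in irradiated replicates 1, 2 and 3. The groups were separate, but the log2 fold change of -0.20 (SE 0.105) did not pass, with an edgeR adjusted p of 0.384. Prdx6, which works with a single catalytic cysteine and also has phospholipase activity (chromosome 1, 161240112 to 161251219, minus strand), had 50.9, 53.2 and 61.4 CPM in untreated and 43.1, 42.7 and 47.5 CPM in irradiated glands. Its groups did not overlap either. Its log2 fold change of -0.31 (SE 0.11) was the second lowest of the 10 and did not pass, with an edgeR adjusted p of 0.171. Length and GC adjustment left both values close to these, at -0.23 for Prdx1 and -0.34 for Prdx6, unlike that of Sod1. With library totals alone they were -0.05 and -0.17, and the groups of both genes overlapped. Prdx2 (chromosome 8, 84969587 to 84974834, plus strand), an abundant protein of red blood cells, had 39.6, 46.3 and 43.8 CPM in untreated and 41.9, 36.3 and 37.6 CPM in irradiated glands. Irradiated replicate 1 lay inside the untreated range, and the log2 fold change was -0.16 (SE 0.11).

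Summed over Sod1, Prdx1, Prdx2 and Prdx6, the cytosolic enzymes stood at 265.7, 267.5 and 270.4 CPM in untreated and 228.5, 214.0 and 224.6 CPM in irradiated libraries. These sums did not overlap with TMM scaling. With library totals alone they were 252.5, 240.4 and 269.6 against 237.4, 250.3 and 214.5 CPM, and overlapped. Summed over Sod2 and Prdx3, the matrix enzymes stood at 92.2, 86.5 and 93.7 CPM in untreated and 98.0, 85.3 and 99.6 CPM in irradiated libraries, and these sums did overlap. With library totals alone the matrix sums were 87.7, 77.7 and 93.4 against 101.8, 99.7 and 95.2 CPM, higher without overlap after irradiation. The median log2 fold change of all tested genes was 0.14 under that scaling. The grouping by place was set with the members' values known and no test was made of the difference between places.

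The organelle peroxiredoxins had overlapping groups. Prdx3 (chromosome 19, 60864051 to 60874556, minus strand), the peroxiredoxin of the matrix, had 39.3, 32.7 and 37.8 CPM in untreated and 40.8, 32.5 and 41.0 CPM in irradiated replicates 1, 2 and 3, a log2 fold change of 0.06 (SE 0.12). Prdx4 (chromosome X, 155323918 to 155340754, minus strand), which couples peroxide removal to disulfide formation in the endoplasmic reticulum, had 8.64, 11.5 and 11.0 CPM in untreated and 11.1, 10.1 and 9.58 CPM in irradiated glands. At -0.01 (SE 0.16) its log2 fold change was the nearest to 0 of the 10, in a gland whose acinar cells make large amounts of secreted protein. Prdx5, an atypical peroxiredoxin (chromosome 19, 6906697 to 6910106, minus strand), had 25.3, 28.7 and 32.4 CPM in untreated and 19.8, 25.7 and 26.9 CPM in irradiated glands. Its log2 fold change of -0.26 (SE 0.13) did not pass, with an edgeR adjusted p of 0.367, and was -0.09 with the length and GC offset. It was -0.13 without irradiated replicate 1 and -0.17 without untreated replicate 3. The sign of Prdx3 turned without untreated replicate 2 (-0.02), and that of Prdx4 turned in 6 of 15 alternative settings.

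**Figure D3:**
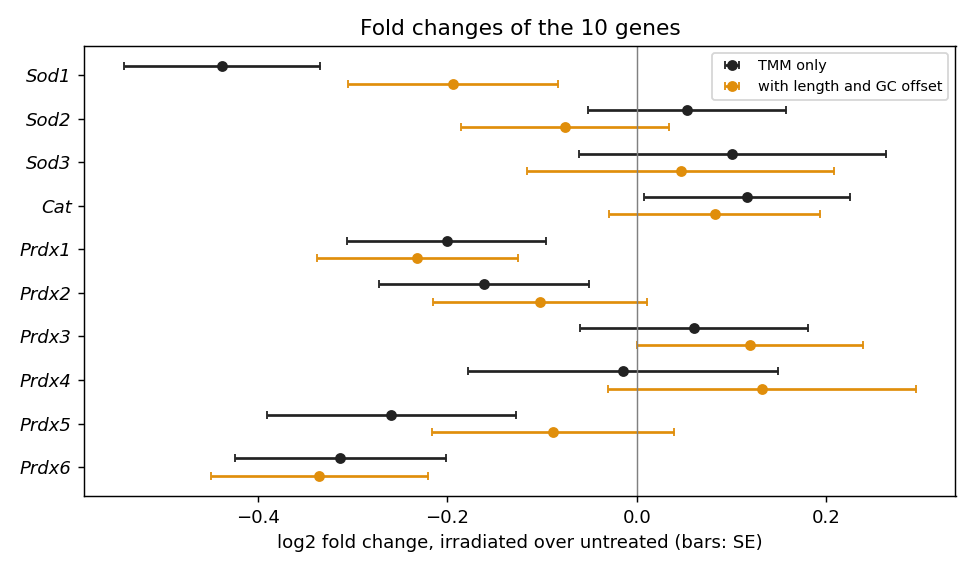
Log2 fold change of irradiated over untreated glands for the 10 genes, with SE bars, scaled by TMM alone (black) and with the offset for transcript length and GC content (orange). The value of Sod1 moves from -0.44 to -0.19, whereas those of Prdx1 and Prdx6 stay near -0.2 and -0.3.

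How far the data can show changes of this size was checked on counts simulated for the same 12885 genes. Of genes changed 1.4-fold 6.88% were called, and of genes changed 2-fold 64.8%. The changed genes were drawn at random from all tested genes, so these rates are averages over low and high levels. The members that did not pass had fold changes from 0.805 to 1.08. The rate for genes at the level and spread of these members was not worked out. The copies found by symbol, Prdx6b, Prdx6-ps2 and Prdx2-rs3, had 0 counts in all 6 libraries. Their sequences were not compared with the members, and copies under other names were not sought. Reads that aligned to several places were set aside by the authors' counting and made up 13.3% to 18.4% of reads. The counts of 0 therefore do not show whether reads shared with copies were lost. Prdx2 shares 350 of its 3050 annotated exon bases with Junb and Rnaseh2a on the opposite strand, and Prdx5 shares 409 of 2139 with Trmt112. With the strand setting of the counting not given, reads there cannot be assigned with certainty.

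Genes around the family were grouped in 6 lists. They covered the thioredoxin system (with glutaredoxins, sulfiredoxin and sestrins), glutathione and its peroxidases, metal supply, oxidant sources, regulators with NRF2 targets, and peroxisomes. Of their 97 tested genes, 0 passed by edgeR's quasi-likelihood test, 0 by limma-voom and 1 by DESeq2, and 22 had an unadjusted p under 0.05. That is 22.7% of the 97, against 15.0% of all tested genes. In the list of the thioredoxin system, 0 of 13 passed, with a median log2 fold change of 0.09. Txn1, the cytosolic thioredoxin, stood at 38.0 ± 2.35 CPM (SD, n = 3) in untreated glands and 35.4 ± 0.222 CPM after irradiation, a log2 fold change of -0.10 (SE 0.11). Txnrd1, the reductase that recharges it, stood at 20.2, 13.7 and 16.8 CPM in untreated and 25.2, 22.5 and 19.7 CPM in irradiated replicates 1, 2 and 3. The groups overlapped, and its log2 fold change of 0.41 (SE 0.14) did not pass, with an edgeR adjusted p of 0.168. Srxn1, the sulfiredoxin that rescues over-oxidised peroxiredoxins, stood at 0.22 (SE 0.24), the thioredoxin inhibitor Txnip at -0.57 (SE 0.43) and the glutaredoxin Glrx5 at -0.22 (SE 0.11).

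The sestrins, stress-induced proteins of which Sesn1 and Sesn2 are known p53 targets, were singled out after their values were seen. Sesn1 had 11.8, 11.9 and 11.6 CPM in untreated and 14.8, 14.1 and 21.3 CPM in irradiated replicates 1, 2 and 3. Sesn2 had 6.01, 3.85 and 2.47 CPM in untreated and 6.79, 9.86 and 7.51 CPM in irradiated glands. Sesn3 had 35.7, 36.2 and 28.1 CPM in untreated and 40.9, 41.0 and 37.1 CPM in irradiated glands. For all 3 the lowest irradiated library stood above the highest untreated one, and the log2 fold changes were 0.51 (SE 0.16), 0.97 (SE 0.28) and 0.25 (SE 0.12). They did not pass, with edgeR adjusted p values of 0.123, 0.104 and 0.325. Sesn1 and Sesn2 passed with library totals alone and without the filter on low counts, and Sesn2 also without untreated replicate 1. Sesn1 was 0.29 without irradiated replicate 3 (edgeR adjusted p 0.398), and Sesn3 was 0.14 without untreated replicate 3 and 0.13 with the length and GC offset.

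Glutathione peroxidases remove peroxides with glutathione and so overlap in function with the peroxiredoxins. Of 13 tested genes in that list 0 passed, 9 were negative and the median log2 fold change was -0.19. Gpx4, which reduces lipid peroxides, had 63.9, 66.7 and 71.6 CPM in untreated and 53.7, 49.7 and 46.7 CPM in irradiated replicates 1, 2 and 3. The groups did not overlap, and the log2 fold change of -0.43 (SE 0.11) just missed the threshold, with an edgeR adjusted p of 0.0549. Like that of Sod1 it was smaller with the length and GC offset, at -0.21. Gpx1, the cytosolic and mitochondrial glutathione peroxidase, had 87.7, 89.4 and 89.7 CPM in untreated and 81.0, 80.6 and 79.4 CPM in irradiated glands, a log2 fold change of -0.15 (SE 0.10) that turned to 0.04 with the offset.

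Of 11 tested genes of metal supply 0 passed, with a median log2 fold change of -0.06. Ccs, the chaperone that loads copper into Sod1, had 10.4, 13.5 and 8.87 CPM in untreated and 12.5, 8.90 and 9.50 CPM in irradiated replicates 1, 2 and 3. Its groups overlapped almost fully, with a log2 fold change of -0.06 (SE 0.18). The copper carrier Slc31a2 stood at -0.18 (SE 0.21), and Slc25a39, a mitochondrial carrier, at -0.17 (SE 0.11). Of 23 tested regulators and NRF2 targets 0 passed, 12 were negative and the median was -0.03. Nfe2l2, which encodes NRF2, stood at 26.3 ± 0.714 CPM (SD, n = 3) in untreated glands and 27.8 ± 0.470 CPM after irradiation, a log2 fold change of 0.08 (SE 0.11). Keap1, its inhibitor, had 17.0, 16.0 and 17.1 CPM in untreated and 12.1, 14.3 and 12.2 CPM in irradiated glands. The groups of Keap1 did not overlap, and its log2 fold change of -0.39 (SE 0.14) did not pass, with an edgeR adjusted p of 0.167. Fth1, an iron store, and Taldo1, an enzyme of the pentose phosphate pathway, stood at -0.13 (SE 0.12) and -0.14 (SE 0.12).

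**Figure D4:**
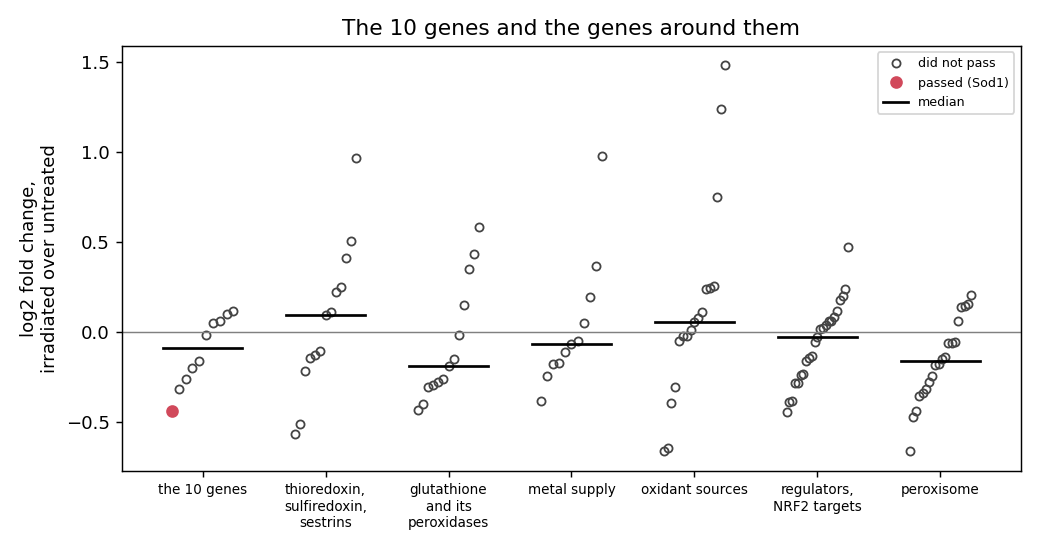
Log2 fold change of irradiated over untreated glands for each tested gene of the family and of the 6 lists around it, with black bars for list medians and a filled point for the gene that passed the threshold. Sod1 is the only filled point, and the list medians lie between -0.19 and 0.09.

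The 5 genes whose levels followed Sod1 most closely over the 6 libraries were sought among 3265 genes with a mean of at least 20 CPM. By Pearson correlation of log2 CPM they were Psmc3, a proteasome subunit (0.987), Rps27a, a ribosomal protein fused to ubiquitin (0.978), Gpx1 (0.977), Fis1, a factor of mitochondrial fission (0.975), and Ptp4a2, a phosphatase (0.975). With 6 libraries in 2 groups, likeness to Sod1 largely means being lower in the irradiated group, which the choice fixes. Their log2 fold changes ran from -0.38 to -0.15, and none of the 5 passed, with edgeR adjusted p values from 0.108 to 0.52. Within the family, Prdx1 (0.834) and Prdx6 (0.775) had the highest correlation with Sod1 over the 6 libraries, and Cat (-0.607) the lowest.

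Whole glands hold several cell types, so fewer cells of a type and less RNA per cell cannot be told apart. Of 9 T cell markers 2 rose and 7 did not pass. They summed to 1.49 to 14.6 CPM in untreated and 32.5 to 47.1 CPM in irradiated libraries, with 8 of 9 higher without overlap. Of 7 B cell markers 1 rose and 6 did not pass. They summed to 0.525 to 17.7 CPM and 37.2 to 38.0 CPM, with 7 of 7 higher without overlap, and in neither list was a marker at 0 throughout. Untreated replicate 2 held the lowest sum in both lists, 1.49 and 0.525 CPM, against 14.4 and 9.87 CPM or more in the other untreated libraries. Markers of acinar and duct cells did not pass but lay mostly below 0. The median log2 fold change was -0.15 for 8 acinar markers, with 2 lower without overlap, and -0.17 for 9 duct markers, also with 2. Amy1 and Bpifa2 stood at 0.01 and -0.08. Among all tested genes 10.6% were lower without overlap and 10.6% higher. Most other cell types had negative medians too, such as -0.302 for 6 fibroblast and -0.425 for 6 fat cell markers. Medians were positive for T cell (1.81), B cell (1.98) and endothelial markers (0.255). Of 8 macrophage markers 4 were lower without overlap and 1 higher, with a median of -0.21. Skeletal muscle markers summed to 485.7 to 607.4 CPM in untreated and 156.5 to 478.3 CPM in irradiated libraries, with 4 of 6 lower without overlap and the lowest sum in irradiated replicate 3. Red cell markers, of interest for Prdx2 and Cat, summed to 51.1 to 88.0 CPM and 26.6 to 61.0 CPM and overlapped. Fibroblast markers, of interest for Sod3, summed to 1041 to 1707 CPM and 836.4 to 1136 CPM and overlapped as well. The part of these cell types in the values of the 10 genes was not tested.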

How the data were processed

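Per the labels' protocols, libraries were made from total RNA with a strand-specific kit. The deposited values are read counts per Ensembl gene, 1 table per sample, and bcl2fastq, HISAT2, HTSeq and build mm10 are the tools and build named in the submitters' processing notes. Versions, gene annotation and strand setting are not given in the sources used here. Rows naming no gene held 32.4% to 40.7% of reads and were left out. Symbols came from GENCODE M21 for mm10 (52403 of 52636 genes matched). Tests used edgeR 4.0.16 in R 4.3.3: TMM scaling, filterByExpr with a minimum count of 10, the quasi-likelihood test with robust shrinkage and Benjamini-Hochberg adjustment over 12885 genes, with a threshold of 0.05. CPM use TMM-scaled library sizes, and log2 CPM a prior count of 2. Alternatives included DESeq2 1.42.0, limma-voom (limma 3.58.1), other scalings, no filter, a spline offset for length and GC content, a replicate block and leaving out each library. The procedure was tested on simulated data. Wilson intervals came from scipy 1.17.1. All 10 members are named, with the genes of each surrounding list past the threshold or else its 2 most abundant, Nfe2l2, Keap1, Txn1, Txnrd1, Srxn1, Gpx1 and Ccs, and the 5 genes most like Sod1; 1 gene under this rule is not reported here. The members and lists were chosen with earlier results of these data known.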

Additional observations from a re-analysis of the deposited data

How the results depend on the processing

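Over all genes, 84 were higher and 45 lower after irradiation. The counts were 259 and 22 with library totals alone, 279 and 239 without a filter, 21 and 5 without robust shrinkage and 20 and 5 by limma-voom. DESeq2 gave 121 and 70, and leaving out 1 library gave 31 to 83 and 14 to 72. The replicate block gave 39 and 14, and 43 and 14 with the length and GC offset. The labels do not say whether the replicate numbers pair the libraries. Same-numbered deviations from the group means correlated at 0.02, -0.11 and -0.11, and unlike-numbered ones at -0.03 to 0.12. With so few libraries these values cannot decide whether samples were paired.

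The count of members past the threshold, 1, was 0 with library totals alone, without robust shrinkage, by limma-voom, with the offset, with the replicate block (Sod1 adjusted p 0.133) and with both. It was 0 to 1 when 1 library was left out. The count of surrounding genes past the threshold, 0, was 3 with library totals alone, 6 without a filter (Ftl1, Gpx4, Ppargc1a, Rac2, Sesn1 and Sesn2), 1 by DESeq2 (Rac2) and 0 to 3 without 1 library: 3 without untreated replicate 1 (Pex6, Rac2 and Sesn2), 1 without untreated replicate 2 (Rac2) and 1 without irradiated replicate 2 (Gpx3).

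Sod1 kept its sign in all 15 settings, from -0.46 to -0.19, as did Cat, Prdx1, Prdx2, Prdx5 and Prdx6. With library totals alone the log2 fold changes of these genes turned: Prdx4 0.13, Txn1 0.049, Gpx1 0.0052, Ccs 0.082 and Fth1 0.017. With the offset Sod2 was -0.076, Prdx4 0.13, Txn1 0.025, Gpx1 0.041 and Ccs 0.12, and with the replicate block as well Sod2 was -0.076, Prdx4 0.14, Txn1 0.026, Gpx1 0.041 and Ccs 0.12. Leaving out 1 library gave Sod3 -0.050 to 0.24, Prdx3 -0.015 to 0.16, Prdx4 -0.13 to 0.061, Ccs -0.24 to 0.11 and Slc31a2 -0.34 to 0.063. With 1 library left out the range was -0.35 to -0.13 for Prdx5 and 0.058 to 0.17 for Cat. After the data were seen, the values by library were recomputed with library totals alone (given beside the results). The causes were not tested.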

Other observations

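Among enzymes that make superoxide or hydrogen peroxide, 0 of 17 tested genes passed by edgeR's quasi-likelihood test, and the median log2 fold change was 0.06. The most abundant was Ero1lb, an oxidase of the endoplasmic reticulum whose peroxide Prdx4 can use, at 107.0 ± 8.34 CPM in untreated and 86.6 ± 13.4 CPM in irradiated glands (SD, n = 3). This gave a log2 fold change of -0.30 (SE 0.12). The subunits Rac2 and Ncf4 of the phagocyte NADPH oxidase, named after their values were seen, stood higher in the lowest irradiated library than in the highest untreated one. Rac2 had 9.55, 3.06 and 6.87 CPM in untreated and 14.7, 16.5 and 15.3 CPM in irradiated replicates 1, 2 and 3, and Ncf4 had 0.576, 1.14 and 0.867 CPM and 1.73, 2.65 and 2.94 CPM. Their log2 fold changes were 1.24 (SE 0.35) and 1.48 (SE 0.43), with edgeR adjusted p values of 0.171 and 0.101, and Rac2 passed by DESeq2 at an adjusted p of 0.00286. Rac2 stood at 1.60 without untreated replicate 1 (edgeR adjusted p 0.017) and at 0.92 without untreated replicate 2 (0.0199). Blood cells express both genes, and the lymphocyte markers described above were higher in the same libraries; the part of those cells was not tested. Nox1, Nox3, Dao and Hao2 had 0 counts in all 6 libraries.

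Gpx3, a secreted glutathione peroxidase named after its values were seen, stood at 40.9 CPM in irradiated replicate 2 and at 11.5 and 13.7 CPM in irradiated replicates 1 and 3. The highest untreated library had 29.8 CPM.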
